A study of Homo sapiens with 6 samples.

Results

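Tetraspanins are small membrane proteins that span the lipid bilayer several times and gather partner proteins, such as integrins, immunoglobulin-family proteins and proteases, into membrane microdomains. CD82, also called KAI1, is known as a metastasis suppressor whose loss accompanies progression of several carcinomas. CD9, CD63 and CD81 are widely used markers of extracellular vesicles, and a subgroup named TspanC8 escorts the protease ADAM10 to the cell surface. Described here are 10 tetraspanin genes, CD82, CD9, CD63, CD81, CD151, CD53, TSPAN3, TSPAN4, TSPAN14 and TSPAN15, taken by gene name from 60835 distinct names in the deposited tables. They are 10 of the 33 human tetraspanin genes listed, the other 23 being used for comparison. The members were chosen by family and selected on the deposited values of the groups below, with the difference between them already known. Those differences are therefore given as a description. Calls of members below are descriptive too, and are no test of a difference.

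RNA was sequenced from 6 libraries of HEY, an established human ovarian cancer cell line grown in culture. The titles and genotype labels put 3 libraries in siCCNL2, after knockdown of CCNL2, which encodes cyclin L2, and 3 in siNC, taken here as the control. The protocol text describes the CCNL2 siRNA, applied for 48 h, in the same words for all 6 libraries and says nothing of what the siNC cells received. No other agent or allele is named. Nothing tells whether replicates were separate cultures, and p-values therefore reflect only the variation among these 6 libraries, possibly technical.

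Totals per library ran from 13596286 to 18095529 counts in siCCNL2 and from 15771604 to 16934044 in siNC. The siRNA target CCNL2 averaged 190 ± 11.2 CPM (counts per 1000000 reads, TMM-scaled) in siCCNL2 and 258 ± 10.8 CPM in siNC (SD, n = 3 each; log2 fold change -0.44, adjusted p = 2.15e-08). Among 10 epithelial and ovarian carcinoma markers, PAX8 averaged 116 CPM in siCCNL2 and 131 CPM in siNC, and KRT7 averaged 498 CPM in siCCNL2 and 748 CPM in siNC, while MUC16 and CDH1 averaged under 0.2 CPM in both groups. Of 4 mesenchymal markers 1, CDH2, rose, where 17.2% of all tested genes were higher. VIM averaged 1495 CPM in siCCNL2 and 1475 CPM in siNC. The 7 leukocyte markers summed to 7.98 to 9.21 CPM in siCCNL2 and 9.73 to 12.8 CPM in siNC, with CD3E at no more than 3 counts in any library. Of the 3 tested, 1 (LCP1) was lower, where 16.5% of all tested genes were lower.

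CD82 showed the largest difference among the members. It had 38.7, 36.1 and 35.1 CPM in siCCNL2 replicates 1 to 3, against 98.9, 98.6 and 94.3 CPM in siNC replicates 1 to 3. All siCCNL2 values lay below all siNC values, and the gap between the groups was far wider than the spread within either. The group means were 36.6 ± 1.86 CPM in siCCNL2 and 97.2 ± 2.6 CPM in siNC (SD, n = 3 each), a log2 fold change of -1.41 (SE 0.055), which is a change of -62.3%. Of all genes called in the comparison, 74 were lower by more. Each value rested on 484 to 705 reads in siCCNL2 and 1502 to 1675 reads in siNC. Replicate libraries varied in CD82 by a coefficient of variation of 4.06%, near the median of 4.25% among the 500 tested genes nearest in level.

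CD82 lies on the plus strand of chromosome 11 at 44564427 to 44620358 of GRCh38, with 16 merged exons of 4054 bases in GENCODE release 29. An antisense gene, AC010768.1, shares 280 exon bases with it on the opposite strand and averaged 0.042 CPM in siCCNL2 and 0.06 CPM in siNC. Within 500000 bases of CD82, 3 other genes reached a mean of 1 CPM in either group. None of the 3 was called, where 33.6% of all tested genes were. The nearest, EXT2, which encodes a heparan sulfate polymerase, averaged 162 CPM in siCCNL2 and 152 CPM in siNC (log2 fold change 0.10, adjusted p = 0.0646). For ACCS the log2 fold change was -0.16 (adjusted p = 0.375), and for PRDM11 it was -0.21 (adjusted p = 0.242).

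The proximal upstream sequences of the members that differed most, CD82 and TSPAN15, are shown with each GC box in capitals, the letters GGGCGG on either strand, a motif bound by SP1-family factors. The windows come from RefSeq on GRCh38.p14, plus strand, chr11:44565413-44565590 for CD82 and chr10:69451215-69451464 for TSPAN15. The CD82 window lies inside the gene, downstream of its outermost annotated start, and was ended before the next annotated exon.
CD82: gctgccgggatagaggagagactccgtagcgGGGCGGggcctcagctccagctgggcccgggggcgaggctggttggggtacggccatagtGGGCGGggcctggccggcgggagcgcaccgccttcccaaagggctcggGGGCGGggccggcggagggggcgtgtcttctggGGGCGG
TSPAN15: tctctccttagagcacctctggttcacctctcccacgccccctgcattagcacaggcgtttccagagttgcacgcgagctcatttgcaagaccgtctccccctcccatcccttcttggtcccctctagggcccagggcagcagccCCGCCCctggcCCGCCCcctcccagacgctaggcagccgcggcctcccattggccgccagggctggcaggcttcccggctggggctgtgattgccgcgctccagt
The CD82 stretch holds 4 GC boxes and the TSPAN15 stretch 2. In the full 250 bases before the RefSeq start, guanine and cytosine made up 77.2% for CD82 and 67.6% for TSPAN15, against a median of 58% over 35116 such windows of all genes. A GC box stood in 42.6% of those windows. Neither gene's window held the AP-1 motif TGANTCA, found in 6.57% of windows. The AP-2 motif GCCNNNGGC, found in 19.8% of windows, occurred 1 time for CD82 and 2 times for TSPAN15, where 0 matches for CD82 and 1 for TSPAN15 overlapped a GC box. Both strands were searched, and a match is a string of letters, not a site of binding. The RefSeq start of CD82 lies 1236 bases inside the gene's first position in the deposited table. A promoter window was found for 7 of the 10 members.

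**Figure D1:**
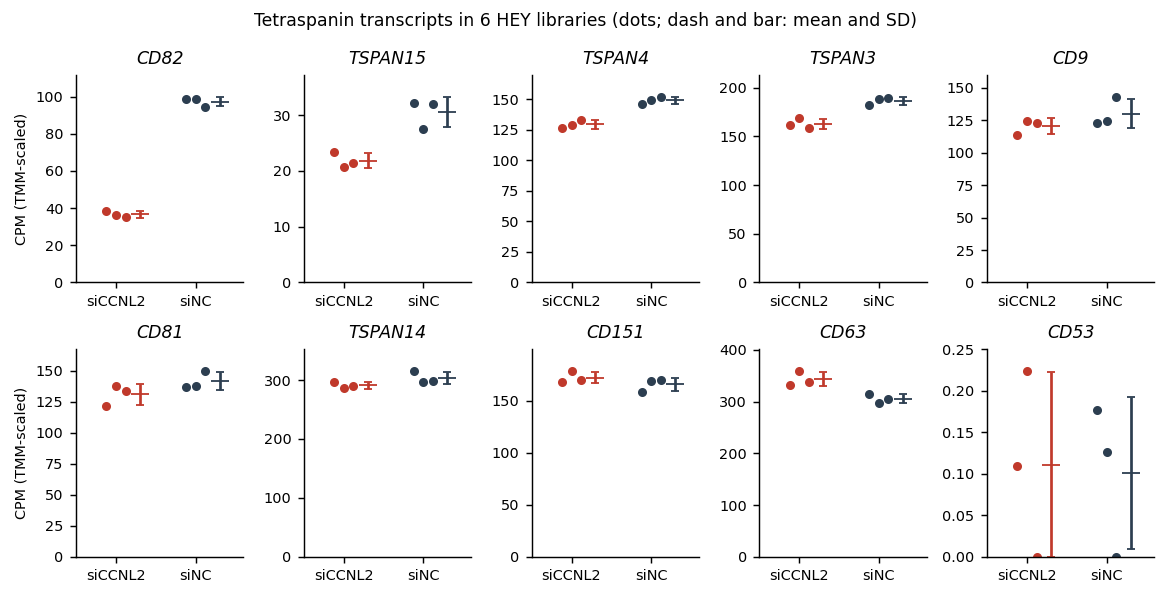
TMM-scaled CPM of the 10 tetraspanin genes in the siCCNL2 (left) and siNC (right) libraries, with 1 dot per library and the mean and SD beside the dots. CD82 lies at 35.1 to 38.7 CPM in siCCNL2 and 94.3 to 98.9 CPM in siNC, and CD53 stays below 0.25 CPM in every library.

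TSPAN15 and TSPAN14 belong to the TspanC8 subgroup that binds ADAM10, and TSPAN15 is known to promote cleavage of N-cadherin by that protease. TSPAN15 had 23.4, 20.7 and 21.4 CPM in siCCNL2, against 32.2, 27.4 and 32.1 CPM in siNC. Its groups did not overlap, with siNC replicate 2 the nearest to siCCNL2. The log2 fold change was -0.48 (SE 0.082), the second lowest of the members. TSPAN14 had 296, 286 and 290 CPM in siCCNL2, against 315, 297 and 299 CPM in siNC, with a log2 fold change of -0.06 (SE 0.037), and -0.03 without siNC replicate 1. Its groups were separate in CPM by less than 1 CPM and overlapped on the authors' length-scaled values, so the separation depends on the scaling. TSPAN15 lies on chromosome 10 at 69451465 to 69507666, and TSPAN14 at 80454265 to 80533124 of the same chromosome. HK1, the hexokinase gene nearest to TSPAN15, was not called (log2 fold change -0.04, adjusted p = 0.513). Of the 9 genes within 500000 bases of TSPAN15 with a mean of 1 CPM in either group, 2 were called, where 33.6% of all tested genes were. These were SRGN (log2 fold change -0.17, adjusted p = 0.00147) and COL13A1 (-0.30, adjusted p = 0.00372), both lower.

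TSPAN4, a marker and organiser of migrasomes, the vesicles left behind on retraction fibres of migrating cells, had 126, 129 and 133 CPM in siCCNL2, against 147, 149 and 152 CPM in siNC. The groups did not overlap, and the log2 fold change was -0.21 (SE 0.042). TSPAN3 had 162, 169 and 159 CPM in siCCNL2, against 182, 188 and 190 CPM in siNC. It too was lower in every siCCNL2 library, by 0.19 on the log2 scale (log2 fold change -0.19, SE 0.040).

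CD63, an abundant tetraspanin of late endosomes, lysosomes and secreted vesicles, was the member whose siCCNL2 values all lay above the siNC values in CPM. It had 333, 359 and 338 CPM in siCCNL2, against 314, 298 and 306 CPM in siNC, a log2 fold change of 0.17 (SE 0.038). An antisense gene, AC009779.2, shares 237 exon bases with CD63 and averaged 2.58 CPM in siCCNL2 and 1.8 CPM in siNC.

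CD9, which acts in cell fusion and motility, had 113, 125 and 123 CPM in siCCNL2, against 123, 125 and 143 CPM in siNC. The groups overlapped in CPM, and siNC replicate 3 stood above the other siNC libraries. Its log2 fold change was -0.11 (SE 0.054), -0.04 without siNC replicate 3 and -0.07 without siCCNL2 replicate 1. CD81, a receptor for hepatitis C virus, had 122, 138 and 134 CPM in siCCNL2, against 137, 138 and 150 CPM in siNC. Its groups also overlapped in CPM, siCCNL2 replicate 1 being the lowest, and the log2 fold change was -0.11 (SE 0.049). It was -0.06 without siCCNL2 replicate 1 and -0.07 without siNC replicate 3, and CD81 came under the threshold used for calls, an adjusted p under 0.05, without siCCNL2 replicate 2. On the authors' TPM-like score the siCCNL2 values of both genes lay below the siNC values, narrowly for CD9, where siCCNL2 replicate 3 had 112.6 and siNC replicate 1 had 113.4.

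CD151, which binds laminin-receptor integrins, had 168, 178 and 170 CPM in siCCNL2, against 159, 169 and 170 CPM in siNC, and the groups overlapped. The log2 fold change was 0.05 (SE 0.042), and on the score the siCCNL2 values lay above, the nearest libraries of the groups both at 280.7. The fold change was 0.02 without siNC replicate 1 and 0.03 without siCCNL2 replicate 2. CD151 and TSPAN4 are neighbours on chromosome 11, at 832887 to 839831 and 842812 to 867116, with 2980 bases between them, and 4 of the 10 members lie on this chromosome. CD151 shares 257 exon bases with POLR2L on the opposite strand, a gene at 90.8 CPM in siCCNL2 and 88.9 CPM in siNC that was not called. CD53, a leukocyte tetraspanin, had 2, 3 and 0 reads in siCCNL2 and 3, 2 and 0 reads in siNC. It was too low to test, and a count of 0 allows up to 0.19 CPM in siCCNL2 replicate 3 and up to 0.187 CPM in siNC replicate 3, as counting error alone.

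Across the 9 members that passed the count filter, 1 was higher (CD63) and 4 were lower (CD82, TSPAN15, TSPAN4 and TSPAN3) in siCCNL2 at an adjusted p under 0.05, and 4 were not called. Over all 15346 genes tested, 17.2% were higher and 16.5% lower at that threshold, 33.6% in all. Groups did not overlap in CPM for 6 of the 9, where 43.9% of all tested genes showed no overlap. The members were chosen with this contrast known, so nothing is read from these calls or shares. The median log2 fold change of the 9 was -0.11, beside 0.00232 over all genes.

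**Figure D2:**
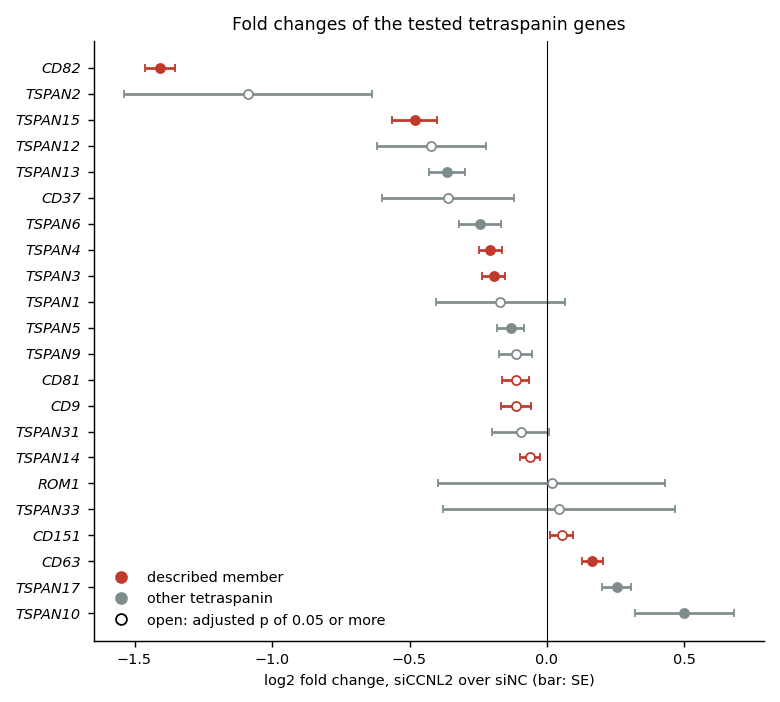
Log2 fold change of siCCNL2 over siNC with its standard error for the 22 tested tetraspanin genes, the described members in red and the others in grey, open where the adjusted p was 0.05 or more. CD82 at -1.41 stands lowest, TSPAN2 at -1.09 has a wide error, and TSPAN10 at 0.50 stands highest.

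Levels between genes were compared on the authors' TPM-like score, which divides by gene length. CD63 was the most abundant member, at 850 ± 14.8 in siCCNL2 and 764 ± 21.9 in siNC (score, SD, n = 3 each), followed in both groups by CD151 and TSPAN4. CD82 had scores of 54.5, 48.6 and 48.6 in siCCNL2, against 138.3, 137.7 and 129.8 in siNC. Its rank among the 33 tetraspanins was 10 in siCCNL2 and 4 in siNC. In siNC its lowest library (129.8) lay just under the highest of CD9 (130.3), so these neighbours overlapped, while TSPAN4, next above, did not overlap it. In siCCNL2 its range ran into that of TSPAN14 (52.5 to 57), and TSPAN15 stayed below it. TSPAN3 and CD81 overlapped each other in siCCNL2, and TSPAN14 and TSPAN15 did so in siNC.

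The score summed over all 33 tetraspanins was 1934 to 1957 in siCCNL2 and 2008 to 2040 in siNC, and the 10 members made up 86.5% to 86.8% of it in siCCNL2 and 85.9% to 86.1% in siNC. CD82 contributed 2.6% ± 0.187 of that sum in siCCNL2 and 6.67% ± 0.266 in siNC (SD, n = 3 each). CD63 contributed 43.7% ± 0.504 in siCCNL2 and 37.6% ± 0.888 in siNC. The ratio of CD82 to CD9 in score was 0.516, 0.437 and 0.431 in siCCNL2, against 1.22, 1.2 and 0.996 in siNC, so the more abundant of this pair was CD9 in every siCCNL2 library and CD82 in 2 of 3 siNC libraries.

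**Figure D3:**
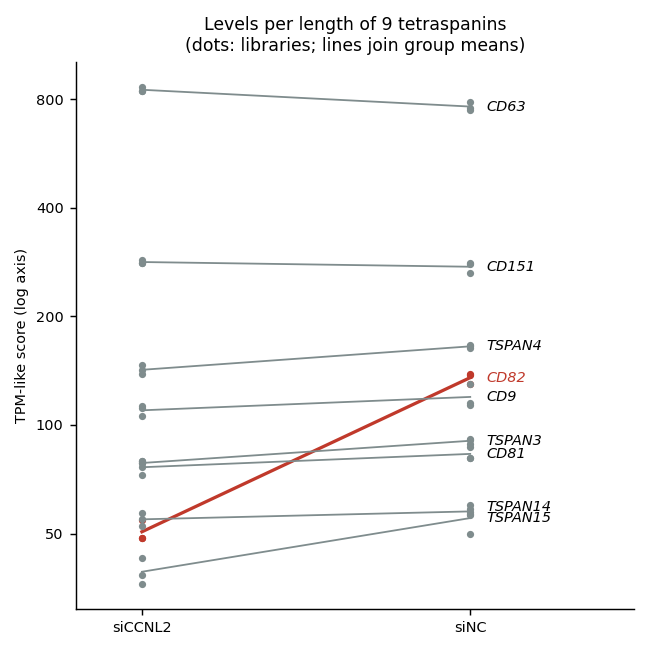
TPM-like score, on a log axis, of the 9 members that passed the count filter, with dots for libraries and lines joining the siCCNL2 (left) and siNC (right) means. The CD82 line crosses those of CD9, TSPAN3, CD81 and TSPAN14, and CD63 lies on top in both groups.

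Among the 23 tetraspanin genes outside the members, 13 passed the count filter, 2 rose and 3 fell, and 8 were not called (median log2 fold change -0.13, beside 0.00232 over all genes). The called share was 38.5%, near the 33.6% of all tested genes. The count was 2 without siCCNL2 replicate 3, and 3 without siCCNL2 replicate 2 or without siNC replicate 3. TSPAN13, a broadly expressed family member, fell, with 32.6, 36.5 and 34.5 CPM in siCCNL2, against 46.5, 41.5 and 44.9 CPM in siNC (log2 fold change -0.36, SE 0.066, adjusted p = 1.09e-04). TSPAN17, of the TspanC8 subgroup, rose, with 66.5, 68.6 and 69.4 CPM in siCCNL2, against 56.8, 59.9 and 54.9 CPM in siNC (log2 fold change 0.25, SE 0.054, adjusted p = 6.27e-04). For both genes all libraries of a group lay on 1 side of the other group.

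The remaining calls had higher adjusted p-values. TSPAN6 had a log2 fold change of -0.24, lower in siCCNL2 with an adjusted p of 0.0139. It missed the threshold when siCCNL2 replicate 3 was left out (adjusted p = 0.107) or siNC replicate 3 was (0.053). TSPAN10, also TspanC8, rose by 0.50 at 5.94 ± 0.349 CPM in siCCNL2 and 4.19 ± 1.06 CPM in siNC (adjusted p = 0.0351). That call was lost without siCCNL2 replicate 2 or 3 or without siNC replicate 1 or 2 (adjusted p 0.0749, 0.105, 0.0835 and 0.187) and with the DESeq2 Wald test (0.0754). TSPAN10 shares 36 exon bases with NPLOC4 on the opposite strand, which also rose (268 CPM in siCCNL2 and 249 CPM in siNC, adjusted p = 0.0371). TSPAN5, another TspanC8 gene, fell by 0.13 (adjusted p = 0.0418), and the call was lost on leaving out any single library (adjusted p 0.0521 to 0.202) and with the DESeq2 Wald test (0.0771). TSPAN33, the last of the subgroup, stayed at 0.7 CPM in siCCNL2 and 0.675 CPM in siNC. CD37, a leukocyte tetraspanin, averaged 2.18 CPM in siCCNL2 and 2.82 CPM in siNC (log2 fold change -0.36, adjusted p = 0.274). Among the untested genes, UPK1A had no read in any library, where 3 counts would amount to 0.166 to 0.221 CPM.

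Genes for proteins known to associate with tetraspanins in the membrane changed in both directions, 2 higher, 8 lower and 8 not called of 18 tested (median log2 fold change -0.08), where 17.2% of all tested genes were higher and 16.5% lower. ITGA3, the integrin chain that CD151 binds most tightly, fell to 1220, 1177 and 1242 CPM in siCCNL2, against 1951, 1947 and 1980 CPM in siNC (log2 fold change -0.69, SE 0.030, adjusted p = 1.07e-14). ITGA6, another laminin-binding integrin chain, rose to 434, 435 and 451 CPM in siCCNL2, against 307, 306 and 302 CPM in siNC (log2 fold change 0.53, SE 0.034, adjusted p = 1.33e-11). The groups of these integrin chains were widely apart, in opposite directions. ITGB1, the shared beta chain, rose slightly (log2 fold change 0.09, adjusted p = 0.02). It missed the threshold when siCCNL2 replicate 3 was left out (adjusted p = 0.0705), when siNC replicate 2 was (0.0839), and with upper-quartile factors (0.0565). ITGA5, a fibronectin receptor chain, fell by 0.29 (adjusted p = 2.46e-07).

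The immunoglobulin-family partners of CD9 and CD81 differed among themselves. IGSF8, also called EWI-2, fell, with 5.6, 6.71 and 5.92 CPM in siCCNL2, against 10.9, 10.4 and 8.91 CPM in siNC (log2 fold change -0.74, SE 0.136, adjusted p = 1.28e-04). IGSF3, a relative, fell too, to 42.9 ± 1.33 CPM in siCCNL2, against 81.3 ± 0.556 CPM in siNC (SD, n = 3 each; log2 fold change -0.92, SE 0.053, adjusted p = 1.54e-12). PTGFRN, or EWI-F, had 109, 105 and 104 CPM in siCCNL2, against 110, 111 and 116 CPM in siNC and was not called (log2 fold change -0.08, SE 0.045, adjusted p = 0.173). The adhesion molecule gene ICAM1 fell by 1.01 in log2 (8.77 ± 1.33 CPM in siCCNL2 and 17.6 ± 1.68 CPM in siNC, adjusted p = 2.99e-07). The tight junction gene CLDN1 fell by 0.51 (adjusted p = 3.08e-10), and the growth factor receptor genes EGFR and MET, whose signalling CD82 is known to dampen, fell by 0.21 (adjusted p = 7.92e-06) and 0.25 (adjusted p = 3.91e-05). CLDN1, EGFR, MET and ITGA5 fall outside the naming rule and were chosen after their values were seen.

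ADAM10, genes of its known substrates and ADAM17 were counted because TSPAN14 and TSPAN15 act on the ADAM10 protease. Of 8 tested, 1 rose (CDH2) and 4 fell (NOTCH1, NOTCH2, ADAM17 and ADAM10 itself), with a median log2 fold change of -0.13. Over all tested genes 33.6% were called, and without siNC replicate 1 the count of calls in this list was 3. ADAM10 had 190, 186 and 189 CPM in siCCNL2, against 216, 202 and 192 CPM in siNC (log2 fold change -0.11, SE 0.043, adjusted p = 0.0479). The call was lost without any 1 of the libraries other than siNC replicate 3 (adjusted p 0.0687 to 0.337, the highest without siNC replicate 1) and with the DESeq2 Wald test (0.0678). ADAM17, a related sheddase, fell by 0.16 (adjusted p = 0.0155), lost without siCCNL2 replicate 1 (adjusted p = 0.0716), siNC replicate 1 (0.0699) or siNC replicate 3 (0.0601). The receptor genes NOTCH1 (log2 fold change -0.56, SE 0.047, adjusted p = 1.37e-09) and NOTCH2 (-0.48, SE 0.031, adjusted p = 1.13e-11) fell. CDH2, which encodes N-cadherin, rose to 145, 152 and 147 CPM in siCCNL2, against 130, 127 and 128 CPM in siNC (log2 fold change 0.21, SE 0.041, adjusted p = 3.53e-04).

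**Figure D4:**
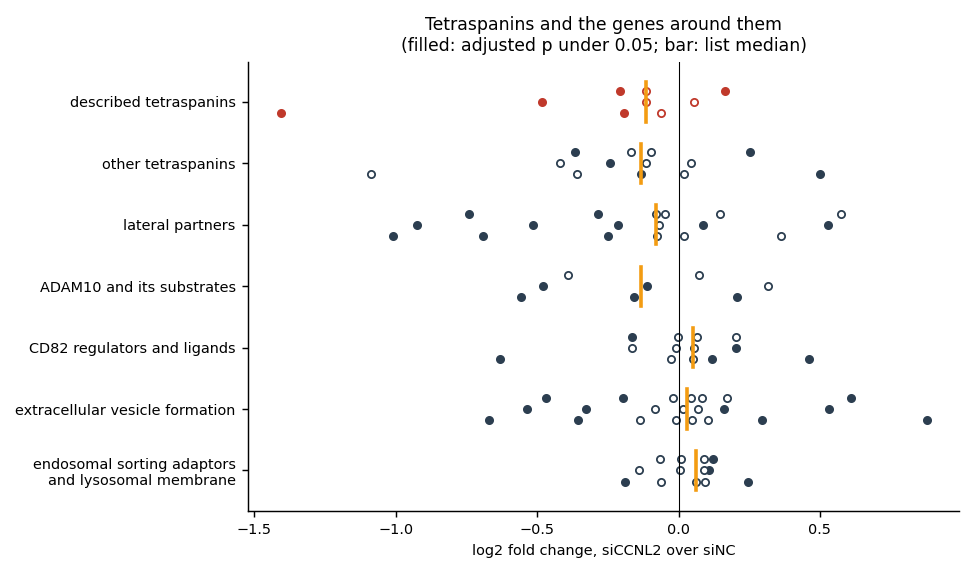
Log2 fold change of siCCNL2 over siNC for each tested gene of the described tetraspanins (red) and 6 lists of related genes (dark), filled where the adjusted p was under 0.05, with a bar at each list's median. Medians run from -0.13 to 0.06, and CD82 at -1.41 is the lowest point of the plot.

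Genes reported to control CD82 or to act with it gave 3 higher and 2 lower of 13 tested (median log2 fold change 0.05), a called share of 38.5% near the 33.6% of all tested genes, and 3 calls without siCCNL2 replicate 3 or without siNC replicate 2. JUNB, an AP-1 subunit reported as an activator of CD82, fell, with 20.8, 22.3 and 21.3 CPM in siCCNL2, against 32.4, 32.7 and 34.6 CPM in siNC (log2 fold change -0.63, SE 0.073, adjusted p = 2.4e-07). Its groups did not overlap. JUNB shares 259 exon bases with HOOK2 on the opposite strand, which was not called. CTNNB1, which encodes beta-catenin, fell by 0.16 (adjusted p = 3.61e-04). ACKR1, the receptor that CD82 binds on endothelial cells, had no read in any library.

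Genes of extracellular vesicle formation were counted because CD9, CD63 and CD81 mark these vesicles. Of 22 tested, 5 rose and 6 fell (median log2 fold change 0.03), 50% in all, beside 33.6% of all tested genes. The syndecan genes, whose products recruit the adaptor syntenin, went both ways. SDC4 reached 188, 206 and 203 CPM in siCCNL2, against 109, 106 and 109 CPM in siNC (log2 fold change 0.88, SE 0.044, adjusted p = 1.36e-13), and SDC1 rose by 0.61 (adjusted p = 7.62e-11), while SDC2 fell by 0.67 (adjusted p = 2.18e-04). SDCBP, which encodes syntenin and was named after its value was seen, fell by 0.33 (adjusted p = 2.81e-08). The small GTPase genes RAB31 and RAB11A fell by 0.54 (adjusted p = 1e-08) and 0.47 (adjusted p = 1.95e-08). RAB35 rose by 0.16 (adjusted p = 0.0038, named after its value was seen), and RAB27B, which acts in vesicle secretion, rose by 0.53 (adjusted p = 0.0193). The RAB27B call was lost without siCCNL2 replicate 1 (adjusted p = 0.119) or siNC replicate 3 (0.0866) and with the DESeq2 Wald test (0.0516). FLOT1 rose by 0.30 (adjusted p = 2.05e-05) and FLOT2 fell by 0.36 (adjusted p = 1.79e-04). Their products, the flotillins, are known to form hetero-oligomers with each other.

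Adaptor complexes that sort CD63 and other tetraspanins, and membrane proteins of lysosomes where CD63 resides, gave 3 higher and 1 lower of 13 tested (median log2 fold change 0.06), a called share of 30.8% beside 33.6% of all tested genes, and 2 calls without siCCNL2 replicate 3. AP3D1, a subunit of the AP-3 adaptor that routes CD63 to lysosomes, rose by 0.25 (235 ± 2.06 CPM in siCCNL2 and 198 ± 3.14 CPM in siNC, SD, n = 3 each; adjusted p = 1.02e-05). LAMP1 rose by 0.11 (adjusted p = 0.0144; 0.0585 without siCCNL2 replicate 3), and SCARB2 fell by 0.19 (adjusted p = 9.58e-04). LAMP2 was not called, with a log2 fold change of 0.01 and an adjusted p of 0.892.

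The genes whose pattern over the 6 libraries was most like that of CD82 were sought among 10588 tested genes with a mean of 5 CPM or more in either group. Likeness was the root mean square difference of log2 CPM after subtracting each gene's own mean, and the median over all genes was 0.712. The nearest were LAPTM5, a lysosomal membrane protein gene best known in leukocytes (0.0629), CACUL1 (0.0911), TNFRSF11B, which encodes osteoprotegerin (0.101), YPEL2 (0.113) and the laminin chain gene LAMA5 (0.121). Their log2 fold changes, from -1.35 (YPEL2) to -1.21 (LAMA5), have a direction and size fixed by the search for likeness to CD82. LAPTM5 had 18.7, 17 and 17.6 CPM in siCCNL2, against 44.7, 43.3 and 43.6 CPM in siNC. The choice of genes depended on single libraries: of these 5, only 1 was among the nearest 5 without siCCNL2 replicate 1, and 2 without siCCNL2 replicate 3 or siNC replicate 2. It was 3 without siNC replicate 1 or siNC replicate 3.

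**Figure D5:**
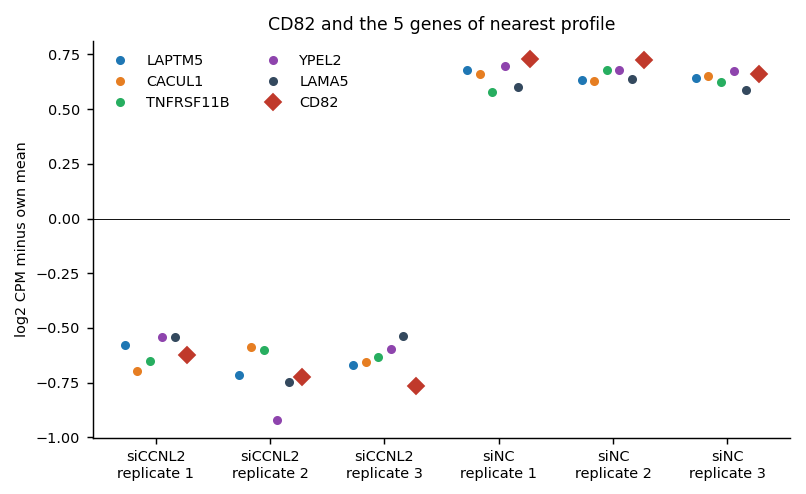
Log2 CPM minus each gene's own mean over 6 libraries, for CD82 (diamonds) and the 5 genes of nearest profile (dots), with siCCNL2 libraries on the left and siNC libraries on the right. Every siCCNL2 value lies below 0 and every siNC value above 0.

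Of 3 endothelial markers checked, 2 were lower in siCCNL2, where 16.5% of all tested genes were lower. CDH5, which encodes VE-cadherin, had 43.9, 44.6 and 53.3 CPM in siCCNL2, against 117, 111 and 115 CPM in siNC (log2 fold change -1.28, SE 0.061, adjusted p = 5.48e-14). PECAM1 had 13, 17 and 12 reads in siCCNL2, against 39, 44 and 33 reads in siNC (log2 fold change -1.41, adjusted p = 0.00126). VWF averaged 0.94 CPM in siCCNL2 and 0.887 CPM in siNC. The list summed to 45.3 to 54.8 CPM in siCCNL2 and 115 to 120 CPM in siNC, nearly all of it CDH5, and its part in the CD82 difference was not tested. In bulk libraries such as these, fewer cells of a kind and less RNA per cell cannot be told apart. Epithelial and carcinoma markers fell in 5 of 8 tested, where 16.5% of all tested genes were lower, with sums of 1650 to 1800 CPM in siCCNL2 and 2170 to 2240 CPM in siNC. EPCAM, of the same list, lay the other way, with 2.91, 2.46 and 2.8 CPM in siCCNL2, against 1.36, 1.96 and 2.2 CPM in siNC, and was not called (log2 fold change 0.58, adjusted p = 0.0856).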

How the data were processed

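RNA of 6 HEY libraries was sequenced, and the sample titles set the groups, 3 libraries each. Read counts per gene name, whole numbers with no normalization, were made by the authors. Per the submitters' processing notes the tools were HISAT2, fastp 0.23.0 and HTSeq 2.0.1, with GRCh38 as build and no role or order stated. Annotation release and strand setting: not given in the sources used here. Reads of genes overlapping on opposite strands are therefore treated as inseparable. The authors also deposited length-scaled values, a TPM-like score, which sums to 1000000 over distinct names. It is called a score because repeated names raise the column sums as deposited. Each of the 60835 names was used once out of 62710 rows.

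Genes passing filterByExpr (15346) were tested with edgeR 4.0.16 in R 4.3.3 (TMM factors, glmQLFit, glmQLFTest, Benjamini-Hochberg over all tested genes), and called means an adjusted p under 0.05. Every adjusted p in the text comes from this fit unless another is named. The standard error is the size of the log2 fold change over the square root of F. The test was also tested on counts simulated with means and dispersions estimated from these libraries. Such a simulation cannot show whether that model describes the libraries themselves. Levels between genes use the score, and likeness of profiles uses log2 CPM with a prior count of 2. With totals of 13596286 to 18095529 counts, counting error grows as counts fall and is not small at a few CPM. TSPAN10, for example, had 50 to 101 counts per library and an SE of 0.18. Floors of 3 counts cover counting error only. Within groups, chi-square per gene between libraries was 2.19 to 3.65, above sampling noise, so none was merged.

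The members and the lists were chosen with earlier results of these data known. Named genes are the members, CCNL2, IGSF8, PTGFRN, ITGB1, ADAM10, at most the 4 largest called changes per direction in each list at 1 CPM or more, and the 5 profiles nearest to CD82. Not all of these are described, and some genes are not reported here. Gene models are GENCODE release 29 on GRCh38, found for all 10 members. Alternatives were other scaling factors (DESeq2 1.42.0, upper-quartile, none), other count filters, the DESeq2 Wald test, limma 3.58.1 (voom, and trend on the log2 score with a pseudocount of 1 or 0.1), an adjusted p under 0.01, a replicate block, and each library left out in turn. The siRNA sequences and protein sequences were not analysed here.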

Additional observations from a re-analysis of the deposited data

How the results depend on the processing

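Each of the 9 member fold changes was recomputed under 16 alternatives. In 144 of 144 values it moved by less than the pooled within-group SD of log2 CPM. Leaving out 1 library of 3 can hardly shift a group mean by that much, so nothing is read from this count. CD82 ran from -1.45 to -1.37 on the log2 scale and TSPAN15 from -0.55 to -0.44, while CD9 ran from -0.15 to -0.04. Between 5 and 6 members were called, the added one being CD81, without siCCNL2 replicate 2 and with upper-quartile factors, and the genes called in all ran from 3612 (adjusted p under 0.01) to 5234 (replicate block). The split of those calls turned with the scaling, 2634 higher and 2525 lower with TMM, 2368 and 2783 with upper-quartile factors. Of 39 other named genes that were called, 28 kept their call under every alternative and none changed direction. Most of these genes were named for a large called change or for likeness to CD82 in the same fit. Their stability is therefore no measure of that of called genes in general. Calls among the tetraspanins outside the members were 3 with the DESeq2 Wald test, 2 at an adjusted p under 0.01, and 2 to 6 on leaving out 1 library. Calls in the ADAM10 list were 3 at an adjusted p under 0.01, and 3 to 4 on leaving out 1 library. Calls among CD82 regulators were 3 with limma-trend at a pseudocount of 1 and 3 at 0.1, and 3 to 5 on leaving out 1 library. Calls among sorting adaptors were 2 at an adjusted p under 0.01, and 2 to 4 on leaving out 1 library. Of the 5 nearest profiles to CD82, between 1 and 4 stayed among the nearest 5 on leaving out 1 library. The alternatives to that profile search were chosen after seeing the data. The cause of these changes was not tested, beyond the fewer libraries of each fit. Same-numbered libraries of the 2 groups had correlations of deviations of 0.043, 0.023 and 0.026, and differently numbered pairs had -0.03 to 0.005. Whether same-numbered libraries shared more than a number was not tested. The replicate block called 5 members, as without it, and changed no named call. Depth limits CD53 and the untested tetraspanins, which stayed near or under 1 CPM.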
